A study of Mus musculus with 12 samples.

Results

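A group of 7 antiviral effector genes was followed in whole mouse brain, out of 12393 genes that the array names, namely Mx1, Mx2, Rsad2, Isg20, Rtp4, Ifi27l2a and Ifi44l. All probe sets annotated to 1 of these genes and to no other gene were taken, whatever their values, which gave 12 of the 22626 probe sets of the array that are not controls. Rsad2 and Ifi44l had 3 probe sets each, Rtp4 had 2, and Mx1, Mx2, Isg20 and Ifi27l2a had 1 each, so the 12 probe sets are readings of 7 genes and not independent items. The samples were total brain lysates of adult, untreated mice kept free of specific pathogens, with 3 arrays for each of 4 genotypes. These were wild type (WT), a Usp18 knockout (USP18ko), a knockout of the receptor gene Ifnar1 (IFNARko) and the knockout of both (USP18ko:IFNARko, called the double knockout). The labels name no strain, sex, age in weeks or design of the deletions, and they do not say whether the replicates were separate animals. The spread that the p-values measure is that between arrays, which may be technical in part. Xist and Eif2s3y, described below, set 1 array of WT and 1 of the double knockout apart from the others of its genotype, which repeats of a single RNA would not show.

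Type I interferons bind a receptor of the chains IFNAR1 and IFNAR2, whose kinases JAK1 and TYK2 activate ISGF3. This transcription factor complex, of which IRF9 is a subunit, binds interferon-stimulated response elements in the promoters of interferon-stimulated genes. USP18 cleaves ISG15, a ubiquitin-like modifier, off other proteins and, at IFNAR2, restrains signalling by the receptor, and in the brain microglia are a known site of its action. The genes described here are products at the far end of that pathway. Mx1 and Mx2 encode dynamin-like GTPases that block virus replication. Rsad2 encodes viperin, a radical SAM enzyme that makes a chain-terminating nucleotide, and Isg20 encodes an exonuclease that degrades single-stranded RNA. Rtp4 encodes a chaperone of membrane receptors with antiviral activity, and Ifi27l2a and Ifi44l encode interferon-induced proteins, the former a small hydrophobic membrane protein and the latter a relative of IFI44. Many laboratory mouse strains carry defective Mx genes, and RefSeq lists both Mx1 and Mx2 as transcribed pseudogenes in the reference table used here, whereas it lists the other 5 genes as protein-coding.

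Promoter windows of 300 bases, 250 before and 50 after the start, were at hand in RefSeq (build GRCm38.p6) for 3 of the 7 genes, in 5 windows, of which Isg20 had 3. They were searched on both strands for the core of the interferon-stimulated response element, GAAANNGAAA, read as TTTCNNTTTC on the other strand, and for the gamma-activated site, TTCNNNGAA, which reads the same on both strands. The first is found in 1131 of 32851 promoter windows (3.44%) and the second in 2726 (8.3%). The 250 bases before the start are shown, 5' to 3' on the gene's strand, for the windows that held a match and for Ifi44l, whose probe sets behaved unlike the others in USP18ko. Capitals mark the matches, of which 1 lies at bases -120 to -111 of Rsad2 and 1 at bases -73 to -65 of the first window of Isg20, and the matches do not overlap. Neither motif was found in the Ifi44l window or in the other 2 windows of Isg20. A match is a description of letters and not a shown binding site, and the lack of one says nothing about a factor.
Rsad2, chr12:26456453-26456702, minus strand: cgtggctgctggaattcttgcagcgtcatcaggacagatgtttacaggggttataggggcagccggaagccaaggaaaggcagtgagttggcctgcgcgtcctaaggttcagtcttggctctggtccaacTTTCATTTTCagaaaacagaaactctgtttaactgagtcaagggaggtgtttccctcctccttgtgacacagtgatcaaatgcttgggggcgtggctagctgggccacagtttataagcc
Isg20, first window, chr7:78913174-78913423, plus strand: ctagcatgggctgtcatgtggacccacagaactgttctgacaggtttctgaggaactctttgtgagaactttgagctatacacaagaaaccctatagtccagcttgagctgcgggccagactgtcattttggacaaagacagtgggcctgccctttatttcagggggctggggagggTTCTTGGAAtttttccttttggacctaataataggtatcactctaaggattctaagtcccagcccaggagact
Ifi44l, chr3:151762892-151763141, minus strand: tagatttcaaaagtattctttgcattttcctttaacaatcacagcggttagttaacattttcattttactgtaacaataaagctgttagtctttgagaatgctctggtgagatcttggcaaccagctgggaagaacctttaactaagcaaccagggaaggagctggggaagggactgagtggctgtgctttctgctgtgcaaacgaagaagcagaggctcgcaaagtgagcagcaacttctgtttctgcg

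Values are log2 signals as the authors deposited them, and differences are in log2 units from 1 fit of all 12 arrays and 22626 probe sets with limma. A difference is said to have passed, or to have risen or fallen, at a Benjamini-Hochberg adjusted p under 0.05 over all probe sets of a comparison. Whether low signals exceed background is not known here, and differences are not turned into folds. Before the antiviral genes, the arrays were checked. Ifnar1 read 7.44 to 8.21 in WT and 7.76 to 8.01 in USP18ko, against 6.24 to 6.59 in IFNARko and 6.56 to 6.68 in the double knockout, without overlap. Usp18 read 4.04 to 4.36 in WT and 3.50 to 3.76 in the other 9 arrays, those of IFNARko included, and the place of its probes relative to the deletion was not given in the sources used here. In a sign of RNA quality, the beta-actin probe sets at both ends of the transcript, IFNARko replicate 1 stood apart, with a 3' signal 1.48 above the 5' signal where the other 11 arrays had 0.20 to 0.54. The X-linked Xist and the Y-linked Eif2s3y split the arrays across the genotypes. Xist read 10.17 in WT replicate 1 and 10.34 to 11.34 in the double knockout, where USP18ko and IFNARko arrays read 4.98 to 5.69, and double knockout replicate 2 had both transcripts (Xist 10.34, Eif2s3y 7.16). Sex-linked transcripts and the double knockout thus could not be told apart from these groups by themselves, and values with Eif2s3y as a covariate are given where they change a call.

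USP18ko and WT were set against each other to ask what the absence of Usp18 does when the receptor is present. In USP18ko brain 5 of the 7 genes rose, namely Rsad2, Ifi27l2a, Rtp4, Mx1 and Isg20. They did so on 7 of the 12 probe sets, and 0 fell, against 0.968% of all probe sets called higher (219 of 22626). The median difference of the 12 was 2.00, with a range from 0.10 to 4.80, beside a median of -0.02 over all probe sets. In 8 of the 12 every USP18ko array lay above every WT array, as it did for 4.1% of all probe sets. Ranked by this difference among the 22626, the probe sets of Rsad2 stood at places 4, 13 and 22, Ifi27l2a at 9, Rtp4 at 27 and 310, Ifi44l at 71, 101 and 4309, Mx1 at 117, Isg20 at 120 and Mx2 at 526.

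**Figure D1:**
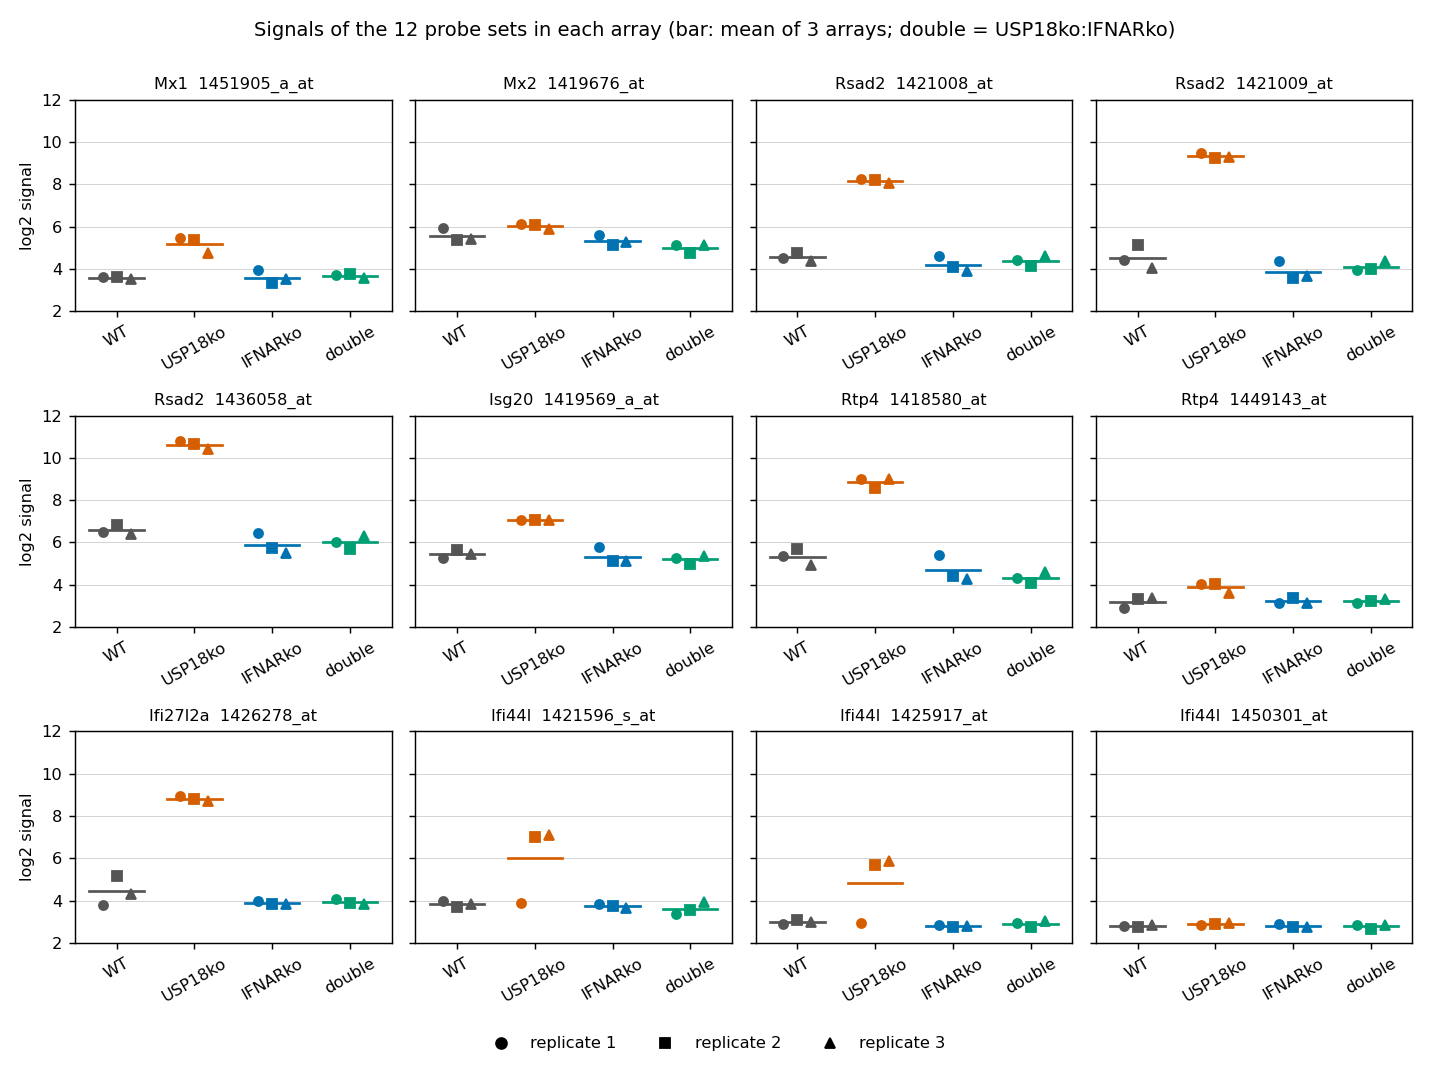
Log2 signals of the 12 probe sets (1 panel each) in the 12 arrays, by genotype on the x axis; symbols mark the replicate number and bars the mean of 3 arrays. The USP18ko arrays sit above all others for Rsad2, Isg20, Ifi27l2a, Mx1 and both Rtp4 probe sets, and USP18ko replicate 1 sits with the WT arrays for Ifi44l.

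Rsad2 and Ifi27l2a had the 3 largest differences of the 12 probe sets. Its probe set of highest signal, 1436058_at, read 6.51, 6.80 and 6.40 in WT replicates 1, 2 and 3, 10.81, 10.64 and 10.43 in USP18ko, 6.46, 5.74 and 5.50 in IFNARko and 6.02, 5.68 and 6.31 in the double knockout. The USP18ko arrays stood alone at the top, while the other genotypes lay below 7 with IFNARko overlapping both WT and the double knockout. Means were 6.57 ± 0.21 in WT and 10.63 ± 0.19 in USP18ko (SD, n = 3 each), a rise of 4.06 (SE 0.23, 95% interval 3.55 to 4.57, limma adjusted p = 9.08e-07). A second probe set, 1421009_at, read 4.44, 5.12 and 4.02 in WT and 9.46, 9.25 and 9.29 in USP18ko, with 4.35, 3.56 and 3.65 in IFNARko and 3.94, 3.98 and 4.35 in the double knockout. It rose by 4.80 (SE 0.26, 95% interval 4.23 to 5.38, adjusted p = 6.83e-07), with means of 4.53 ± 0.56 in WT and 9.33 ± 0.11 in USP18ko (SD, n = 3 each). The last of the Rsad2 probe sets, 1421008_at, read 4.50, 4.76 and 4.37 in WT, 8.26, 8.21 and 8.06 in USP18ko, 4.59, 4.08 and 3.92 in IFNARko and 4.42, 4.12 and 4.63 in the double knockout. Its rise was 3.64 (SE 0.18, adjusted p = 3.19e-07), with means of 4.54 ± 0.20 in WT and 8.18 ± 0.10 in USP18ko (SD, n = 3 each). All 3 probe sets of the viperin gene thus placed the USP18ko arrays above the other 9, and their centred profiles differed from one another by root-mean-square values of 0.34 to 0.63 over the 12 arrays.

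Ifi27l2a, the membrane protein gene, was measured by 1426278_at. It read 3.81, 5.18 and 4.31 in WT, 8.93, 8.79 and 8.69 in USP18ko, 3.99, 3.85 and 3.84 in IFNARko and 4.06, 3.90 and 3.83 in the double knockout. The USP18ko arrays were well above the rest, the WT arrays spread over more than 1 log2 unit with replicate 2 highest, and the 6 arrays without Ifnar1 lay between WT replicate 1 and the other WT arrays. The rise in USP18ko was 4.37 (SE 0.25, 95% interval 3.82 to 4.92, adjusted p = 9.98e-07), with means of 4.43 ± 0.69 in WT and 8.80 ± 0.12 in USP18ko (SD, n = 3 each).

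Rtp4, the receptor chaperone gene, had 2 probe sets that differed in size. Its brighter probe set, 1418580_at, read 5.35, 5.67 and 4.92 in WT, 9.0, 8.57 and 9.01 in USP18ko, 5.41, 4.39 and 4.25 in IFNARko and 4.33, 4.06 and 4.61 in the double knockout. USP18ko was again highest, and the double knockout arrays were all below the WT arrays. The USP18ko difference was 3.54 (SE 0.29, 95% interval 2.92 to 4.17, adjusted p = 2.02e-05), with means of 5.31 ± 0.38 in WT and 8.86 ± 0.25 in USP18ko (SD, n = 3 each). The dimmer probe set, 1449143_at, read 2.91, 3.31 and 3.37 in WT, 4.04, 4.01 and 3.60 in USP18ko, 3.14, 3.35 and 3.13 in IFNARko and 3.14, 3.21 and 3.30 in the double knockout. Its USP18ko arrays lay above the other 9 too, but the difference of 0.68 (SE 0.15, 95% interval 0.36 to 1.01, adjusted p = 0.0652) did not pass. The call was made when USP18ko replicate 3 was left out (0.83, adjusted p = 0.0237) or IFNARko replicate 1 was (0.68, adjusted p = 0.045). The WT mean of this dimmer probe set stood at percentile 4.47 of the arrays' signals and that of the brighter one at percentile 28.8, and their centred profiles differed by a root-mean-square of 1.57.

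Mx1 and Isg20 rose by smaller amounts. Mx1, measured by 1451905_a_at, read 3.61, 3.60 and 3.52 in WT, 5.48, 5.37 and 4.75 in USP18ko, 3.93, 3.33 and 3.52 in IFNARko and 3.72, 3.74 and 3.56 in the double knockout. USP18ko stood above the other 3 genotypes, which overlapped, with its replicate 3 the lowest of the 3 USP18ko arrays. The Mx1 rise was 1.63 (SE 0.19, 95% interval 1.22 to 2.04, adjusted p = 0.000457), with means of 3.57 ± 0.05 in WT and 5.20 ± 0.39 in USP18ko (SD, n = 3 each). Isg20, the exonuclease gene, read 5.28, 5.66 and 5.46 in WT, 7.04, 7.08 and 7.06 in USP18ko, 5.79, 5.10 and 5.11 in IFNARko and 5.27, 4.98 and 5.37 in the double knockout on 1419569_a_at. The USP18ko arrays, from 7.04 to 7.08, lay above all the others, which overlapped. Isg20 rose by 1.59 (SE 0.18, 95% interval 1.20 to 1.98, adjusted p = 0.000376), with means of 5.47 ± 0.19 in WT and 7.06 ± 0.02 in USP18ko (SD, n = 3 each).

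Mx2, the other GTPase gene, did not pass in USP18ko. The Mx2 probe set 1419676_at read 5.91, 5.38 and 5.42 in WT, 6.12, 6.06 and 5.89 in USP18ko, 5.61, 5.11 and 5.26 in IFNARko and 5.14, 4.75 and 5.11 in the double knockout. WT replicate 1 lay within the USP18ko range, so these groups overlapped, while the double knockout arrays were below all WT arrays. Means were 5.57 ± 0.29 in WT and 6.02 ± 0.12 in USP18ko (SD, n = 3 each), and the difference was 0.46 (SE 0.17, 95% interval 0.08 to 0.83, adjusted p = 0.872). With weights per array, estimated gene by gene and chosen after the data were seen, it was 0.59 and passed (adjusted p = 0.0152). Those weights were 0.256, 0.458 and 4.91 for WT replicates 1, 2 and 3, so the weighted WT mean rested mostly on replicate 3. Whether the differences of Mx1 and Mx2 are unequal was not tested.

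Ifi44l split the USP18ko arrays. On 1421596_s_at it read 3.97, 3.67 and 3.84 in WT, 3.87, 6.99 and 7.10 in USP18ko, 3.85, 3.75 and 3.63 in IFNARko and 3.36, 3.54 and 3.91 in the double knockout. USP18ko replicates 2 and 3 were high, and replicate 1 lay within the range of the 9 arrays of other genotypes, 3.36 to 3.97. On 1425917_at the values were 2.89, 3.08 and 2.96 in WT, 2.94, 5.67 and 5.86 in USP18ko, 2.85, 2.73 and 2.78 in IFNARko and 2.93, 2.77 and 3.02 in the double knockout, the same split. Neither difference passed, at 2.16 (SE 0.63, 95% interval 0.78 to 3.54, adjusted p = 0.35) and 1.85 (SE 0.56, 95% interval 0.63 to 3.06, adjusted p = 0.405). Without USP18ko replicate 1 both passed, at 3.22 (adjusted p = 1.85e-06) and 2.79 (adjusted p = 5.87e-07). Rsad2 1436058_at and Ifi27l2a read 10.81 and 8.93 in that array, each the highest of the 3 USP18ko arrays. It was the highest of its group in 7 of the 12 probe sets and the lowest in 4, among them Isg20 at 7.04. Of all 22626 probe sets, 2 had USP18ko replicate 1 at least 2 log2 units below both other USP18ko arrays, and both were these Ifi44l probe sets, a count made after their values were seen. What set this array apart for Ifi44l was not tested. The last Ifi44l probe set, 1450301_at, read 2.64 to 2.95 in all 12 arrays, at percentile 0.91 of signals in WT, and differed by 0.10 (SE 0.10, 95% interval -0.11 to 0.31) in USP18ko. The name of 1421596_s_at marks a kind of probe set that can bind transcripts of related genes.

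**Figure D2:**
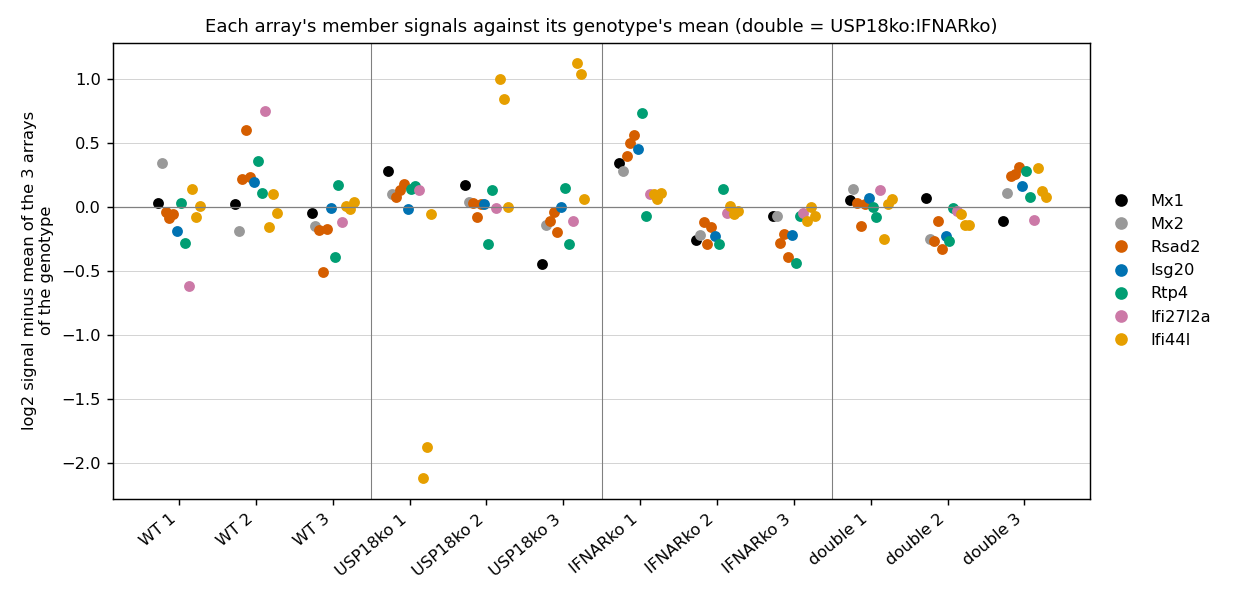
Log2 signal of each of the 12 probe sets minus the mean of its genotype (y axis) in each array (x axis: genotype and replicate number), coloured by gene. The 2 Ifi44l points near -2 belong to USP18ko replicate 1, and IFNARko replicate 1 was the highest array of its genotype in 11 of the 12 probe sets.

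The double knockout against USP18ko asked what the absence of the receptor gene does where Usp18 is missing too. In the double knockout 6 of the 7 genes fell, the 5 named above and Mx2. Of the 12 probe sets 8 fell and 0 rose, against 1.16% of all probe sets called lower (263 of 22626), and 9 of the 12 were lower without overlap, against 7.12% of all. The median difference was -2.15, with a range from -5.24 to -0.10, beside 0.01 over all probe sets. This comparison shares its USP18ko arrays with the first, so the 2 are not independent.

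Viperin's gene Rsad2 fell, with differences of -5.24 on 1421009_at, -4.62 on 1436058_at and -3.79 on 1421008_at and adjusted p of 2.27e-07, 2.27e-07 and 1.86e-07. Ifi27l2a fell by 4.87 (adjusted p = 2.96e-07) and Rtp4 1418580_at fell by 4.52 (95% interval -5.15 to -3.89, adjusted p = 1.81e-06). Isg20 fell by 1.85 (adjusted p = 8.13e-05) and Mx1 fell by 1.53 (95% interval -1.94 to -1.12, adjusted p = 0.000677). Mx2 fell by 1.02 (SE 0.17, 95% interval -1.40 to -0.64, adjusted p = 0.00903), from 6.02 ± 0.12 in USP18ko to 5.0 ± 0.22 in the double knockout (SD, n = 3 each), with no overlap between the groups. Its call was lost without USP18ko replicate 1 (-0.97, adjusted p = 0.053), USP18ko replicate 2 (-1.0, adjusted p = 0.0502) or double knockout replicate 2 (-0.90, adjusted p = 0.0584). The dimmer Rtp4 probe set 1449143_at differed by -0.66 (adjusted p = 0.0652), and passed without IFNARko replicate 1 (-0.66, adjusted p = 0.0447), USP18ko replicate 3 (-0.81, adjusted p = 0.024) or WT replicate 1 (-0.66, adjusted p = 0.0289). Ifi44l differed by -2.39 (adjusted p = 0.173) and -1.92 (adjusted p = 0.272) on its 2 responding probe sets, and by -3.44 (adjusted p = 8.45e-07) and -2.86 (adjusted p = 3.96e-07) without USP18ko replicate 1. With Eif2s3y as a covariate the 8 calls were kept, for example Mx1 at -1.50 (adjusted p = 0.0144), Mx2 at -1.32 (adjusted p = 0.00259) and Rsad2 1436058_at at -4.70 (adjusted p = 1.16e-05). Xist, however, read 10.34 to 11.34 in the double knockout and 5.03 to 5.69 in USP18ko. Within genotypes Eif2s3y varied mainly through WT replicate 1 and double knockout replicate 2. The kept calls therefore do not separate genotype from sex-linked differences.

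**Figure D3:**
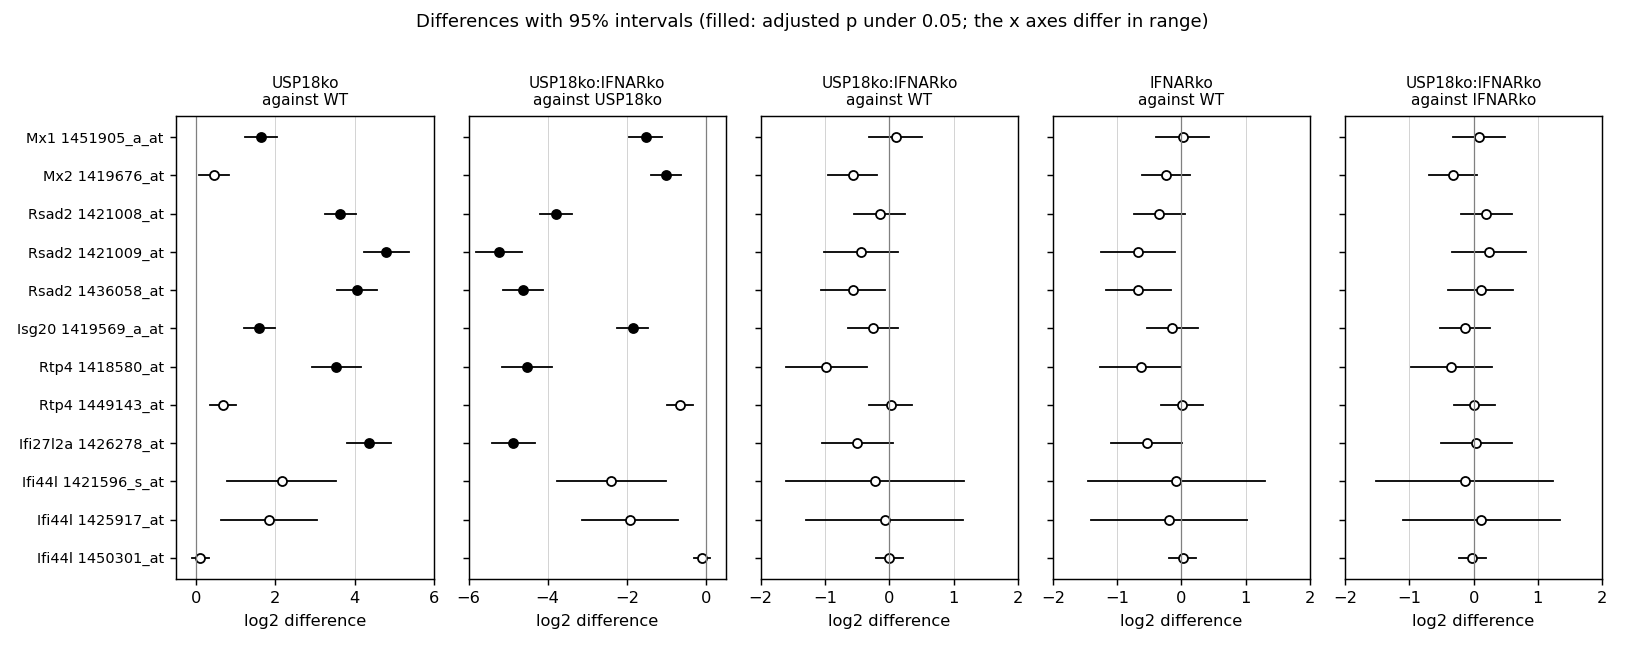
Log2 differences (x axes, whose ranges differ) of the 12 probe sets (rows) in 5 comparisons of genotypes, with 95% intervals; filled circles passed at an adjusted p under 0.05. There are 7 filled circles for USP18ko against WT, 8 for the double knockout against USP18ko and 0 in the other 3 comparisons.

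IFNARko against WT asked what the absence of the receptor gene alone does in untreated mice. None of the 12 probe sets passed with limma, where 0.0177% of all probe sets (4 of 22626, and 0 to 13 with 1 array left out) did, and the smallest adjusted p among the 12 was 0.468. Of the 12 differences 9 were below 0 and 3 above, with a median of -0.22 and a range from -0.68 to 0.02, beside a median of -0.01 over all probe sets. At an unadjusted p under 0.05 there were 2, both of Rsad2 and both lower, against 3.93% of all probe sets lower at that p. They were 1436058_at at -0.67 (95% interval -1.18 to -0.16) and 1421009_at at -0.68 (95% interval -1.25 to -0.10). Rtp4 1418580_at differed by -0.63 (95% interval -1.26 to 0) and Ifi27l2a by -0.54 (95% interval -1.09 to 0.01). These values leaned on WT replicate 2, without which Ifi27l2a differed by -0.17 (adjusted p = 0.691) and Rsad2 1421009_at by -0.38 (adjusted p = 0.638), while without WT replicate 1 Ifi27l2a differed by -0.85 (adjusted p = 0.192). Without IFNARko replicate 3 Rtp4 1418580_at differed by -0.41 (adjusted p = 0.562) and Rsad2 1421008_at by -0.21 (adjusted p = 0.65). For Mx1 the interval was -0.39 to 0.43 around 0.02, for Mx2 -0.62 to 0.13 around -0.24 and for Isg20 -0.53 to 0.26 around -0.14. Of the 12, only Ifi44l 1425917_at was lower in all 3 IFNARko arrays than in all WT arrays, as were 5.9% of all probe sets.

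IFNARko replicate 1, the array with the high actin ratio, was the highest of its genotype in 11 of the 12 probe sets, by 0.30 over its group's mean on average. Without it the differences from WT were -0.95 and -0.92 for Rsad2 1436058_at and 1421009_at (adjusted p = 0.135 and 0.243), -0.99 for Rtp4 1418580_at (adjusted p = 0.182), -0.54 for Rsad2 1421008_at (adjusted p = 0.263) and -0.36 for Isg20, and none passed. The part of RNA quality in these values was not tested. With array weights estimated gene by gene, in which that array weighs 0.0811, 5 of the 12 passed as lower in IFNARko: Rsad2 1436058_at (-0.83, adjusted p = 0.00581) and 1421008_at (-0.42, adjusted p = 0.0377), Rtp4 1418580_at (-0.68, adjusted p = 0.0188), Ifi27l2a (-0.51, adjusted p = 0.0277) and Isg20 (-0.35, adjusted p = 0.0326). The same weights called 2884 of all probe sets in that comparison. They also weighed WT replicates 1, 2 and 3 at 0.256, 0.458 and 4.91, so the weighted WT mean rested mostly on replicate 3. That array was the lowest of WT for the Rsad2 probe sets and for Rtp4 1418580_at.

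The double knockout against WT asked whether levels without both genes differed from WT. None of the 12 probe sets passed with limma, as none did over the whole array (0%, with 950 of 22626 at an unadjusted p under 0.05), at a smallest adjusted p of 0.996. Of the 12 differences 10 were below 0 and 2 above, with a median of -0.24 and a range from -0.98 to 0.10. There were 3 lower at an unadjusted p under 0.05, against 2.35% of all probe sets, and the same 3 were lower without overlap, against 9.68%. They were Rtp4 1418580_at at -0.98 (SE 0.29, 95% interval -1.61 to -0.35), Mx2 at -0.57 (SE 0.17, 95% interval -0.95 to -0.19) and Rsad2 1436058_at at -0.56 (SE 0.23, 95% interval -1.07 to -0.06). Gene-by-gene weights called Rtp4 1418580_at (-0.66, adjusted p = 0.0172) and Mx2 (-0.41, adjusted p = 0.0214) in this comparison, beside 2306 of all probe sets. Here too the weighted WT mean rested mostly on WT replicate 3, which weighed 4.91. The intervals for Mx1, -0.31 to 0.51, Isg20, -0.65 to 0.13, and Ifi27l2a, -1.05 to 0.05, end below the lower bounds of the rise in USP18ko, 1.22, 1.20 and 3.82.

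Against IFNARko the double knockout showed what loss of Usp18 does without the receptor. None of the 12 probe sets passed with limma, with 0% called over the whole array (1889 of 22626 at an unadjusted p under 0.05), and 0 of the 12 had an unadjusted p under 0.05, against 8.35% of all probe sets in either direction. Of the differences 7 were above 0 and 5 below, with a median of 0.03 and a range from -0.35 to 0.24. For Rsad2 the 3 intervals were -0.20 to 0.59, -0.34 to 0.81 and -0.40 to 0.61, for Ifi27l2a -0.51 to 0.59, for Rtp4 1418580_at -0.98 to 0.28, for Mx1 -0.32 to 0.49 and for Isg20 -0.52 to 0.26. Each of these upper bounds lies below the lower bound of that probe set's rise in USP18ko against WT. Without IFNARko replicate 1 the differences were 0.39, 0.49 and 0.38 for Rsad2 1421008_at, 1421009_at and 1436058_at and 0.01 for Rtp4 1418580_at, and none of the 12 passed. The intervals of Ifi44l were wide, -1.52 to 1.24 and -1.09 to 1.34, since the split among the USP18ko arrays enters the residual spread of these probe sets.

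The difference between these last values and the USP18ko rise was itself tested as an interaction, the double knockout minus IFNARko, less USP18ko minus WT. For 5 of the 7 genes the interaction passed below 0, on 7 of 12 probe sets, against 0.685% of all probe sets (155 of 22626), with a median of -2.01 beside 0.01 over all. The values were -4.57 (SE 0.37, adjusted p = 5.07e-05), -3.95 (SE 0.33, adjusted p = 5.65e-05) and -3.44 (SE 0.26, adjusted p = 2.37e-05) for Rsad2 and -4.33 (SE 0.36, adjusted p = 5.6e-05) for Ifi27l2a. Rtp4 1418580_at stood at -3.89 (SE 0.41, adjusted p = 0.000321), Isg20 at -1.72 (SE 0.25, adjusted p = 0.00576) and Mx1 at -1.54 (SE 0.27, adjusted p = 0.0167). With Eif2s3y as a covariate the calls of Mx1 (-1.49, adjusted p = 0.328) and Isg20 (-1.66, adjusted p = 0.149) were lost. The Mx1 call was also lost without WT replicate 3 (-1.52, adjusted p = 0.0646), USP18ko replicate 2 (-1.46, adjusted p = 0.0584), double knockout replicate 1 (-1.57, adjusted p = 0.0557) or double knockout replicate 3 (-1.49, adjusted p = 0.0656). Mx2 did not pass at -0.78 (SE 0.25, adjusted p = 0.574), nor did Ifi44l at -2.30 and -1.72 (adjusted p = 0.936 each), which passed at -3.36 (adjusted p = 3.11e-05) and -2.66 (adjusted p = 1.97e-05) without USP18ko replicate 1.

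The genes with profiles closest to the antiviral genes were sought over the 12 arrays, by the root-mean-square difference of mean-centred log2 signals and among probe sets of other genes, for the 1 probe set of highest mean signal of each of the 7. Closest to Rsad2 were Ifit3 (0.25), Ccl12 (0.32) and Trim30a (0.35), and closest to Ifi27l2a were Ifit3 (0.27), Ccl12 (0.30) and Ifit1 (0.36). Rtp4 was nearest to the class I gene H2-K1 (0.35), Trim30a (0.37) and Ifit3 (0.40). Isg20 had its nearest profiles in Ms4a7 (0.14), Apobec1 (0.15) and Mpeg1 (0.17), and Mx1 in Ms4a4c (0.21), Tlr3 (0.21) and Gpr84 (0.22). For Mx2 they were Rnf135 (0.21), Stat2 (0.21) and Erap1 (0.22), and for Ifi44l 1421596_s_at they were Cxcl11 (0.55), Ms4a6d (0.63) and Cxcl13 (0.64). The measure is smaller for genes of small differences, so these values are not comparable between genes of unlike range.

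Other genes of the interferon pathway were read from lists for comparison with the 7. Of 30 other antiviral interferon-stimulated genes 25 were measured, and 19 rose and 0 fell in USP18ko against WT, with a probe set median of 1.33 beside -0.02 over all. They rose on 23 of 36 probe sets, against 0.968% of all probe sets called higher. Ifit1, which binds viral RNA, rose by 4.87 (SE 0.20, adjusted p = 7.2e-08), Ifit3, its partner, by 4.19 (SE 0.13, adjusted p = 7.5e-09) and Trim30a by 3.82 (SE 0.20, adjusted p = 3.61e-07). In the double knockout 21 of the 25 fell against USP18ko, with a median of -1.28 beside 0.01 over all. They did so on 25 of 36 probe sets, against 1.16% of all probe sets called lower. Of 14 receptor and signalling genes, all measured, 2 rose in USP18ko, Ptpn6 (1.24), a phosphatase gene, and Irf9 (0.88), the DNA-binding part of ISGF3, and 1, Usp18 itself, fell by 0.63. Among 7 measured interferon regulatory factors Irf7 rose by 3.40 and Irf8 by 0.96, on 2 of 13 probe sets, with a list median of 0.04. Of the 8 measured interferon ligand genes 0 passed with limma (0 at an unadjusted p under 0.05), with a median of -0.04. The array means of the ligand list were low, 3.76 to 4.0 in WT and 3.76 to 3.90 in USP18ko. They were not set against background. Of 15 genes listed as family relatives 10 were measured, on 25 probe sets, and the list also held Cmpk2, the gene beside Rsad2. In USP18ko 0 passed with limma, with a median of -0.02. At an unadjusted p under 0.05 there were 2 of the 25, against 908 of 22626 over all probe sets. Those 2 were Cmpk2 1450484_a_at and Ifi27l2b, a relative of Ifi27l2a, which differed by 0.52 (adjusted p = 0.582). Both genes are counted again among the neighbours below. Ifi27l2b did not fall in the double knockout, where it differed by 0.06 from USP18ko and by 0.58 from WT. In IFNARko it differed by 0.31 from WT, and none of these differences passed.

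Genes that lie next to the antiviral genes on the chromosome were read as well, the nearest 2 on each side among protein-coding genes and the 7 genes themselves. Of 25 such neighbours outside the 7 genes 19 were measured on 38 probe sets, with differences of -0.36 to 0.72 in USP18ko against WT. Of the 38 probe sets 0 passed with limma (lowest adjusted p 0.369). At an unadjusted p under 0.05 there were 2 of the 38, against 908 of 22626 over all probe sets. Ifi44, next to Ifi44l, and Ifi27, next to Ifi27l2a, were among those without a probe set of their own, so the values do not cover them. Cmpk2, which lies beside Rsad2 and is itself interferon-inducible, read 7.75 to 8.07 in WT and 8.35 to 8.74 in USP18ko on 1450484_a_at, a difference of 0.69 (SE 0.20, adjusted p = 0.369). On 1422095_a_at it read 6.97 to 7.18 in WT and 7.69 to 7.90 in USP18ko, a difference of 0.72 (SE 0.44) that did not pass either. In the double knockout Cmpk2 fell by 1.06 against USP18ko on 1450484_a_at (adjusted p = 0.0224), the 1 neighbour that passed there, and its other probe set, 1422095_a_at, differed by -0.54 (adjusted p = 1).

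**Figure D4:**
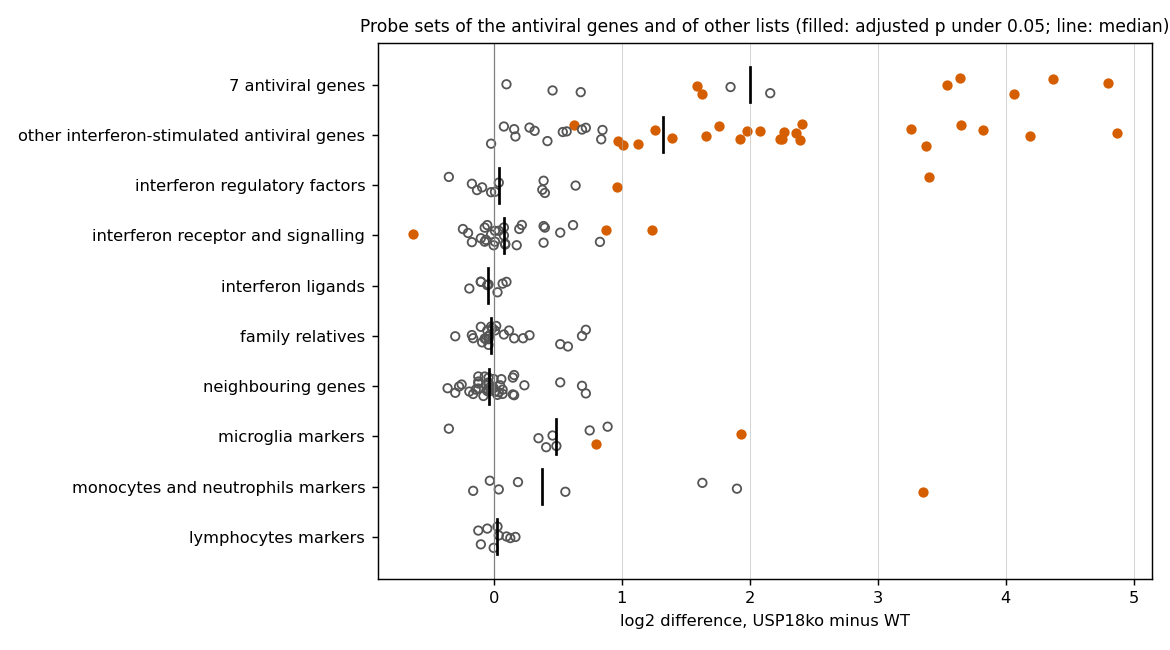
Log2 differences of USP18ko against WT (x axis) for each probe set of the 7 antiviral genes and of 9 other lists (rows); filled circles passed at an adjusted p under 0.05 and the vertical line is the list's median. The antiviral genes have a median of 2.00 and the other interferon-stimulated antiviral genes one of 1.33, while the measured neighbours and family relatives sit near 0.

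Markers of cells that can carry these transcripts were set beside them, since in a lysate fewer or more cells of a type and less or more RNA per cell cannot be told apart. Of 6 measured microglia markers (of 7) 2 rose in USP18ko, Aif1 by 1.93 (SE 0.29, adjusted p = 0.00447) and Itgam by 0.80 (SE 0.14, adjusted p = 0.0153). The list's median was 0.49, with 5 of 9 probe sets at an unadjusted p under 0.05 in either direction. Over all probe sets 908 of 22626 had such a p, 0.968% were called higher and the median was -0.02. The mean over this list was 6.52 to 7.16 in the WT arrays, 7.19 to 7.82 in USP18ko, 6.70 to 6.76 in IFNARko and 6.72 to 6.80 in the double knockout. Of 6 monocyte and neutrophil markers 1 rose, Plac8 by 3.35. Their median was 0.38, with 4 of 8 probe sets at an unadjusted p under 0.05 in either direction. Array means, Plac8 included, were 4.05 to 4.23 in WT, 5.06 to 5.12 in USP18ko, 4.01 to 4.67 in IFNARko and 4.05 to 4.69 in the double knockout. Among 3 plasmacytoid dendritic cell markers Bst2, an interferon-induced gene in many cells, rose by 3.38. Of the list's 10 probe sets only that of Bst2 had an unadjusted p under 0.05, and the list's median was 0.02. Its array means, Bst2 included, were 7.25 to 7.35 in WT, 7.60 to 7.66 in USP18ko, 7.24 to 7.37 in IFNARko and 7.19 to 7.23 in the double knockout. Of the 6 measured lymphocyte markers 0 passed with limma (0 of 9 probe sets at an unadjusted p under 0.05), with array means of 4.47 to 4.53 in WT and 4.42 to 4.59 in USP18ko, and 0 passed among markers of astrocytes, neurons, oligodendrocytes, endothelial cells or choroid plexus (1 probe set, of astrocytes, at an unadjusted p under 0.05). The oligodendrocyte markers spread widely among the WT arrays, with means over the list of 7.05 to 10.24 in WT, 7.73 to 9.0 in USP18ko, 7.80 to 8.61 in IFNARko and 8.43 to 8.70 in the double knockout. The part of microglia and of monocytes in the rise of the antiviral genes was not tested.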

How the data were processed

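Biotin-labelled RNA of 12 total brain lysates, amplified in 1 cycle per the labels' protocols, was measured on Affymetrix arrays of 1 colour. The authors deposited 1 log2 signal for each probe set and array, made with the R package affy, per the submitters' processing notes. How they corrected background, normalized and summarized probes, and with which version, was not given in the sources used here, while base 2 was inferred from the values (2.36 to 13.81, array medians 6.98 to 7.07). No detection calls were used. Precision is limited by the number of arrays.

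Of 22690 probe sets, 64 controls were left out, and no filter on low values was set. In the platform annotation 20380 of the rest had 1 gene, 691 several and 1555 none. Groups came from the genotype labels. All 12 arrays were fitted with limma 3.58.1 in R 4.3.3 (lmFit, contrasts.fit, eBayes) with genotype as the only term, which left 8 residual and 3.79 prior degrees of freedom. The 6 comparisons were two-sided, with Benjamini-Hochberg adjustment over all 22626 probe sets of each. An exact test of 3 against 3 arrays cannot go below p = 0.1, so calls rest on the spread limma shares across probe sets. The labels do not say what a shared replicate number means. Deviations from the group means of same-numbered arrays correlated over 0.1 in all 3 pairs of USP18ko and the double knockout (0.101, 0.256 and 0.146). They did so in 3 of the 15 pairs between other groups (-0.261 to 0.234). Values this low do not settle whether the numbers mark matched arrays. The main fit did not pair arrays, and the replicate number entered only as a block in 1 alternative. The fit was tested on simulated data. The genes, lists and tests were chosen with earlier results of these data known. Genes named besides the 7 are up to 3 called members of smallest p per list, the 3 closest profiles per gene, neighbours, relatives and check genes, and Ifi27l2b and Cmpk2 were singled out from the relatives and neighbours after their values were seen. Alternatives were 1 value per gene, a filter on low values, other normalizations, variance and fold settings, array weights, the replicate number as a block, an Eif2s3y covariate, only the groups compared and each array left out.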

Additional observations from a re-analysis of the deposited data

Results flagged for a closer look

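The change between USP18ko and WT differed from the change between the double knockout and IFNARko by the interaction term of limma for 7 probe sets of 5 genes. The interaction was -4.57, -3.95 and -3.44 for the 3 probe sets of Rsad2, -4.33 for Ifi27l2a, -3.89 for Rtp4 1418580_at, -1.72 for Isg20 and -1.54 for Mx1. The call of Mx1 was lost without 4 of the 12 arrays, each left out by itself, and those of Mx1 and Isg20 with Eif2s3y as a covariate. No group had the 4 or more arrays that a check for outlying samples needs.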

How the results depend on the processing

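With 11 alternative settings and each of the 12 arrays left out in turn, the 22 member values that passed kept their call in 443 of 452 alternatives, lost it in 9 and changed sign in 0; the 9 are those of Mx1, Mx2 and Isg20 given above. Values that had not passed did so in 25 alternatives, among them Rtp4 1449143_at with a trended and robust variance (0.68 for USP18ko minus WT, -0.66 for the double knockout minus USP18ko) or with only the groups compared (-0.66 for the latter). The number of the 12 probe sets called stayed within 7 to 9 (USP18ko against WT and double knockout against USP18ko), 6 to 9 (interaction) and 0 (the other 3) when 1 array was left out. With a filter at the 40th percentile of mean signal, 1 was called in each of the first 3, because 1 of the 12, Rsad2 1436058_at, passed the filter. Gene-by-gene weights, chosen after seeing the data because limma's default weights did not converge and were not used, called 5 of the 12 for IFNARko against WT and 2 for USP18ko:IFNARko against WT.

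Values that changed sign had not passed. Most lay near 0, but Rtp4 1418580_at stood at -0.35 in the double knockout against IFNARko (95% interval -0.98 to 0.28). Without IFNARko replicate 1 it was 0.01. With median centring Rtp4 1449143_at was 0 (IFNARko against WT), -0.01 (double knockout against WT) and 0 (double knockout against IFNARko), and with quantile normalization Ifi44l 1450301_at was 0.01 (double knockout against WT). With the weights, IFNARko against WT was -0.07 for Mx1, -0.13 for Rtp4 1449143_at and -0.07 for Ifi44l 1450301_at, the double knockout against WT was -0.14 for Rtp4 1449143_at, and the double knockout against IFNARko was 0.10 for Isg20, 0.02 for Rtp4 1418580_at, 0 for Rtp4 1449143_at and 0.05 for Ifi44l 1450301_at. With Eif2s3y as a covariate, IFNARko against WT was 0 for Mx1 and -0.09 for Rtp4 1449143_at, and the double knockout against WT was 0.02 for Ifi44l 1425917_at.

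With 1 array left out, IFNARko against WT ranged from -0.15 to 0.15 for Mx1, -0.13 to 0.10 for Rtp4 1449143_at and -0.03 to 0.06 for Ifi44l 1450301_at. The double knockout against WT ranged from -0.12 to 0.11 for Rtp4 1449143_at and -0.04 to 0.07 for Ifi44l 1450301_at. Against IFNARko it ranged from -0.05 to 0.25 for Mx1, -0.09 to 0.38 for Rsad2 1436058_at, -0.24 to 0.10 for Isg20, -0.57 to 0.01 for Rtp4 1418580_at, -0.03 to 0.08 for Rtp4 1449143_at, -0.02 to 0.09 for Ifi27l2a and -0.06 to 0.05 for Ifi44l 1450301_at. The causes were not tested.

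Over all probe sets, calls numbered 221 in USP18ko against WT (63 with the filter, 523 with the weights), 270 in the double knockout against USP18ko (75 and 598) and 159 for the interaction (47 and 357). For IFNARko against WT they numbered 4, and 0 to 13 with 1 array left out. With the replicate block, which changed no call of the 12 probe sets, the first 3 numbered 205, 255 and 135. Low signals were not set against background, which limits what can be said of Mx1, Ifi44l, the dimmer Rtp4 probe set and the interferon ligand genes.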

Other observations

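The arrays were also compared over all probe sets for values at least 2 log2 units from both others of the genotype, a count made after the values were seen. USP18ko replicate 1 was that far below in 2 probe sets, both of Ifi44l, and above in 1. IFNARko replicate 1 was below in 189 probe sets and WT replicate 2 above in 22, while every other array of the 12 had at most 8 in either direction. Of the 219 probe sets called higher in USP18ko against WT, replicate 1 was the lowest of the USP18ko arrays in 92 and the highest in 58.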
